A study of Rattus norvegicus with 4 samples.

Results

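The miRNAs described here were miR-320-3p, miR-320-5p and miR-484, which are known for hairpins that are made without the nuclease Drosha. They were taken by name (rno-miR-320-3p, rno-miR-320-5p and rno-miR-484) from the deposited list and are 3 of its 765 rat mature miRNAs. All were examined in 4 small RNA-seq libraries of H9c2, an immortal cardiomyoblast line from rat heart, and of its exosomes, small vesicles that were pelleted from conditioned medium in an ultracentrifuge. Hypoxic exosomes, normoxic exosomes, hypoxic cells and normoxic cells were each represented by 1 library after 48 h of culture. Hypoxic cultures were kept in a chamber with an oxygen absorber and normoxic cultures in humidified air with CO2. Both used medium with serum that had been depleted of exosomes. The methods note n = 4 at RNA extraction without saying what it counts, while the list holds 1 column per condition.

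Most miRNA hairpins are cut out of a long transcript by Drosha in the nucleus and are then trimmed by Dicer in the cytoplasm. The precursors of miR-320 and miR-484 are described in mouse as short transcripts whose own ends form the hairpin, so that Drosha is skipped and Dicer alone cuts. Such a precursor keeps the methylguanosine cap of its transcript, and the capped 5p arm is known to enter Argonaute poorly, so the 3p arm is the usual product. In rodent hearts, miR-320 is known for repressing Hspb6, a small heat shock protein, in injury after ischaemia. miR-484 is known for repressing Fis1, a protein of mitochondrial fission, in cardiomyocytes.

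The Mir484 hairpin is shown because its mature miRNA lies on the 3p side. RefSeq places it on the minus strand of chr10:1394905-1394981 in the build GRCr8, between the protein-coding genes Nde1 and Marf1 and inside neither. The hairpin has 77 bases, and the mature miRNA, in capitals, takes bases 46 to 67. Only 10 bases follow it.
Mir484 hairpin: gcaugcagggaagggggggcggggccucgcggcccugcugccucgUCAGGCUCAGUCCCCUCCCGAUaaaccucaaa
The gene of miR-320, Mir320a, has Polr3d, a gene for a subunit of RNA polymerase III, and a long non-coding RNA as its neighbours in GRCr8.

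The mature sequences below are those of miR-484, of 4 other miRNAs known from mouse or human to skip Drosha, and of miR-378a-3p and miR-423-5p, leading miRNAs of the exosomes that are compared with miR-320-3p below. Capitals mark the seed, bases 2 to 8, which pairs with target mRNAs. miR-877 and miR-702-3p come from short introns (mirtrons). miR-1839-5p lies in Scarna15, a gene of a small Cajal body RNA, and miR-664-3p is known from small nucleolar RNA genes.
miR-484: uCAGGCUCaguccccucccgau
miR-877: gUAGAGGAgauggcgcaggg
miR-702-3p: uGCCCACCcuuuaccccacucca
miR-1839-5p: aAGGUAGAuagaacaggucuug
miR-664-3p: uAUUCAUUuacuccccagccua
miR-378a-3p: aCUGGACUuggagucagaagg
miR-423-5p: uGAGGGGCagagagcgagacuuuu
No 2 of these seeds were the same. The seed of miR-484 was shared by 2 other rat miRNAs in RefSeq, miR-344a-5p and miR-344-5p, and miR-344a-5p was listed at 0 in every library. miR-484 is rich in C, with 10 C and 4 G in 22 bases. Its GC content of 63.6% was above that of 88.7% of the 690 miRNAs of the list that had a RefSeq sequence (median 47.8%).

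The values are RPM, which put each library on 1 common scale of reads set by the authors. Within a library the values ran in equal steps (to within 0.1 of a step) and none above 0 was under 10 steps. A step was therefore taken as 1 read, and a miRNA listed at 0 as one with fewer than 10 reads. miRNAs held 0.881% of the reads behind the scale in hypoxic exosomes and 0.115% in normoxic exosomes. They held 26.9% in hypoxic cells and 51.0% in normoxic cells. Intervals are 95% exact (Clopper-Pearson) intervals unless named otherwise. They hold the counting error of reads alone. Copies made by PCR do not each stand for a molecule, so the intervals do not apply to counts of molecules. With 1 library per condition no difference could be tested against replicates, and no p-value is given. In bulk samples such as these, fewer cells and less RNA per cell cannot be told apart. Of 7 miRNAs that mark heart and skeletal muscle, 0 were listed in hypoxic exosomes, 1 in normoxic exosomes, 2 in hypoxic cells (14.2 RPM in all) and 3 in normoxic cells (32.2 RPM in all), and miR-133a-3p, miR-133b-3p, miR-208a-3p and miR-208b-3p were at 0 in all 4. The highest of the 7 was miR-499-5p, with 12.7 RPM (169 reads) in hypoxic and 26.6 RPM (277 reads) in normoxic cells. miR-206-3p had 20 reads in hypoxic and 34 in normoxic cells, miR-1-3p had 10 in normoxic exosomes and 24 in normoxic cells, and miR-1b, outside the 7, had 10 in hypoxic exosomes, 23 in normoxic exosomes and 41 in normoxic cells. Of the 7, 28.6% were listed in hypoxic and 42.9% in normoxic cells, against 43.3% and 44.2% of all 765.

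miR-320-3p was by far the most abundant of the 3. It had 1088 RPM (13436 reads) in hypoxic exosomes and 189.8 RPM (2252 reads) in normoxic exosomes. It had 828 RPM (11004 reads) in hypoxic cells and 759.6 RPM (7904 reads) in normoxic cells. On RPM both libraries of cells were thus close to each other and lay between the 2 libraries of exosomes, but as a share of miRNA reads both libraries of exosomes were above both of cells and normoxic exosomes were highest, at 16.6%.

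miR-484 was seen only in cells. It had 33.0 RPM (439 reads) in hypoxic cells and 52.0 RPM (541 reads) in normoxic cells, and it was listed at 0 in hypoxic and in normoxic exosomes. At the depth of these libraries, fewer than 10 reads means less than 0.809 RPM in hypoxic exosomes and less than 0.843 RPM in normoxic exosomes. miR-320-5p, the other arm of the miR-320 hairpin, was listed at 0 in all 4 libraries.

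**Figure D1:**
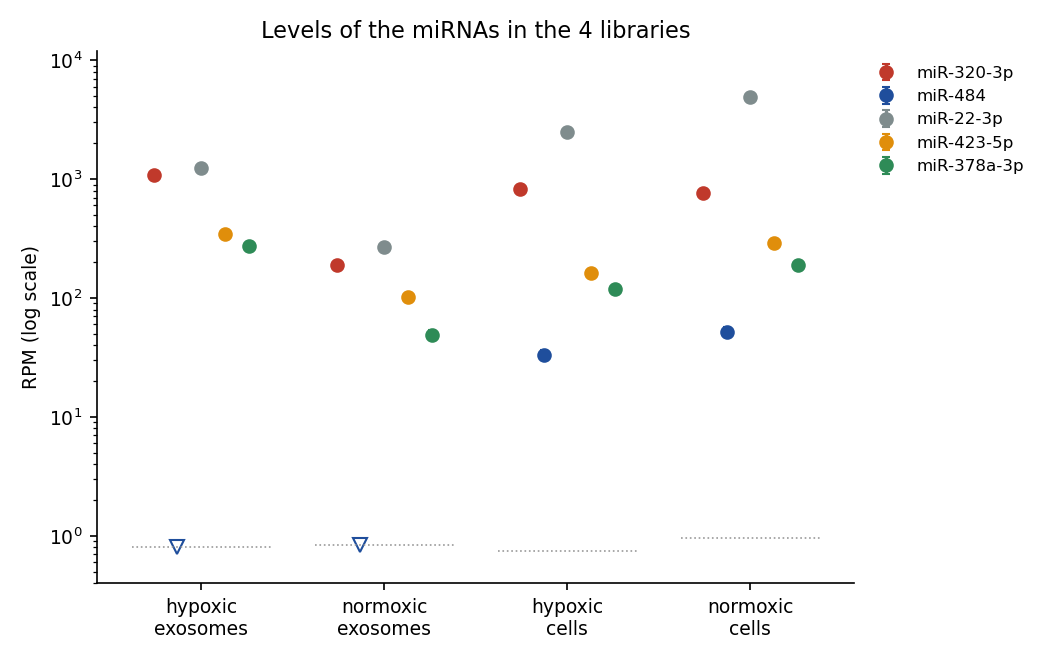
RPM on a log axis in each library for miR-320-3p, miR-484 and 3 leading miRNAs of the exosomes (miR-22-3p, miR-423-5p and miR-378a-3p), with 95% counting intervals that are mostly smaller than the points. Open triangles on the dotted lines mark miR-484 where it was listed at 0 (fewer than 10 reads), in both exosome libraries, while miR-320-3p lies between 189.8 and 1088 RPM in all 4.

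Within the miRNA pool, miR-320-3p took a place in exosomes that it did not have in cells. It was at rank 3 of 144 miRNAs listed in hypoxic exosomes and at rank 2 of 74 in normoxic exosomes. In hypoxic cells it was at rank 40 of 331, and in normoxic cells at rank 57 of 338. It held 12.3% of the miRNA reads in hypoxic exosomes (95% interval 12.1% to 12.5%) and 16.6% in normoxic exosomes (15.9% to 17.2%). In hypoxic cells it held 0.308% (0.302% to 0.313%), and in normoxic cells 0.149% (0.146% to 0.152%).

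In exosomes its place in the order was clear of its neighbours. In hypoxic exosomes the next miRNA above was miR-22-3p with 1236 RPM (1217 to 1256) and the next below was miR-129-5p with 709.8 RPM (695 to 725), against 1069 to 1106 for miR-320-3p. In normoxic exosomes it stood between miR-22-3p with 267 RPM and miR-146a-5p with 127 RPM, and none of these intervals overlapped its own, 182 to 198 RPM. In cells its rank was less fixed. Its interval overlapped that of miR-20a-5p just below it in hypoxic cells, and those of miR-185-5p above and let-7d-5p below in normoxic cells. miR-484 was at rank 138 in both libraries of cells, and its interval overlapped those of both neighbours each time.

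Hypoxia was first set against normoxia in exosomes. Its 1088 RPM in hypoxic exosomes against 189.8 RPM in normoxic exosomes made a ratio of 5.73 for miR-320-3p (95% interval 5.48 to 6.0), but the ratio was below 1 under each other scaling, from 0.730 to 0.852, and 0.745 with each library scaled to its miRNA total. A ratio above 2 on RPM was found for 62 of the 73 miRNAs listed in both libraries (84.9%) and one below 0.5 for 1 (1.37%). The median ratio was 6.73, and 42 of the 73 had a higher ratio than miR-320-3p. A ratio as high as that of miR-320-3p was thus usual in this pair of libraries. On the scale of the miRNA total, 10 of the 73 were above 2 (13.7%) and 21 below 0.5 (28.8%), and with the median ratio set to 1 these shares were 19.2% and 27.4%. miR-320-3p was among none of these. The sum of all miRNA RPM was 7.69 times as high in hypoxic exosomes, and its part in the ratio of miR-320-3p was not tested.

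In cells miR-320-3p and miR-484 stood apart from each other. miR-320-3p had a ratio of hypoxic to normoxic cells of 1.09 (1.06 to 1.12), a log2 ratio of 0.12, and of 1.78 to 2.07 under the other scalings. miR-484 had a ratio of 0.636 (0.559 to 0.722), a log2 ratio of -0.65, on RPM, and ratios above 1 under every other scaling, from 1.04 to 1.20. The median ratio of the 316 miRNAs listed in both libraries was 0.612, so that miR-484 moved with the bulk of miRNAs and miR-320-3p did not share the lower level of most of them. Of the 316, 274 had a ratio below 1, and 35 had a higher ratio than miR-320-3p. Ratios above 2 were found for 4 of the 316 (1.27%) and below 0.5 for 88 (27.8%), and neither miR-320-3p nor miR-484 was among them.

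Of the 106 miRNAs that reached 1000 reads in hypoxic and in normoxic cells alike, 9 had a ratio above 1 on RPM. miR-320-3p was the lowest of these 9. The other 8 were miR-210-3p, the best known miRNA of hypoxia, miR-3556a, and miR-322-5p, miR-322-3p, miR-351-5p, miR-450a-5p, miR-450b-5p and miR-542-3p, whose genes are known to lie close together on the X chromosome. miR-503-5p, known from the same stretch and also past 1000 reads, had 159 RPM in hypoxic and 285 RPM in normoxic cells, a ratio of 0.558 on RPM and of 1.06 when scaled to the miRNA total. Scaled to the miRNA total, the ratio of miR-320-3p was 2.07, past the threshold of 2, as it was for 37 of the 316 miRNAs (11.7%), while 12 (3.80%) were then below 0.5. With the median ratio set to 1 it was 1.78, under the threshold, and 8.23% of the 316 were above 2 and 5.38% below 0.5. The ratio of the miRNA totals in RPM was 0.528, and its part in these ratios was not tested.

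**Figure D2:**
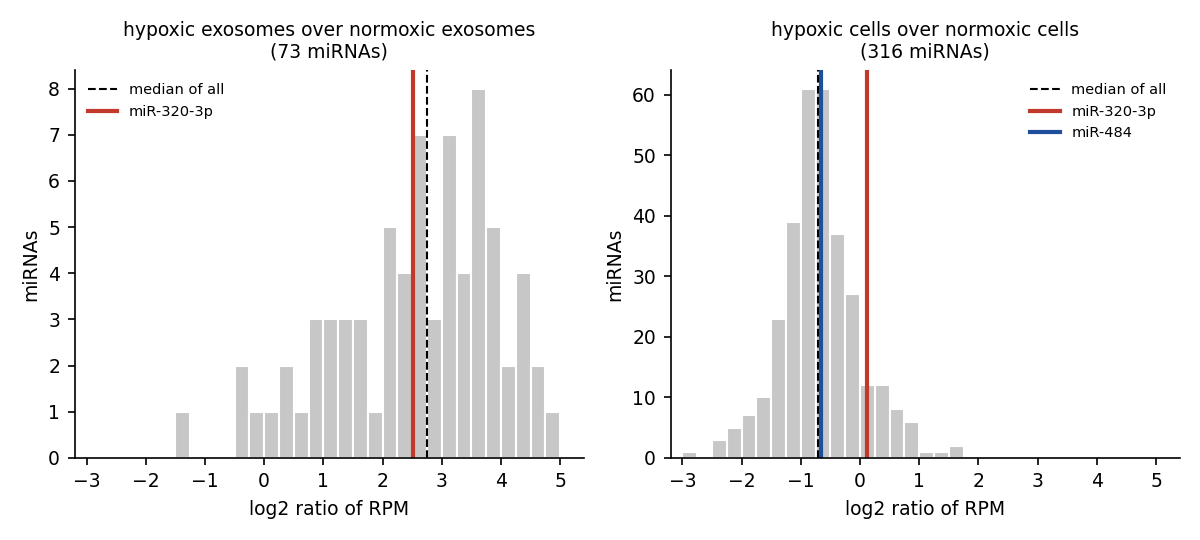
Number of miRNAs by log2 ratio of RPM, hypoxic exosomes over normoxic exosomes (left, 73 miRNAs) and hypoxic cells over normoxic cells (right, 316 miRNAs), with the median of all miRNAs dashed. On RPM miR-320-3p lies just below the median in exosomes (a ratio of 5.73 against a median of 6.73, or 0.745 when scaled to the miRNA total) and right of most miRNAs in cells (1.09 against 0.612), where miR-484 lies near the median (0.636, or 1.20 when scaled to the miRNA total).

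The difference between miR-320-3p and miR-484 in cells did not depend on how libraries were scaled, since the reads of both were counted in the same library. There were 25.1 reads of miR-320-3p for each read of miR-484 in hypoxic cells and 14.6 in normoxic cells. The proportion was 1.72 times as high in hypoxic cells (95% Wald interval on the log scale 1.51 to 1.95). Adaptor ligation favours some sequences, so 25.1 and 14.6 are not ratios of molecules, but the same preference enters both.

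The same measure was taken against 3 leading miRNAs of the exosomes. These were miR-22-3p, known in heart hypertrophy, miR-378a-3p, known in metabolism and encoded in an intron of a coactivator gene, and miR-423-5p, known as a blood marker of heart failure. In cells the proportion of miR-320-3p was higher in hypoxia against all 3, 2.13-fold against miR-22-3p (2.06 to 2.20), 1.95-fold against miR-423-5p (1.83 to 2.07) and 1.73-fold against miR-378a-3p (1.61 to 1.86). In exosomes it was higher in hypoxia against miR-423-5p (1.72-fold, 1.59 to 1.86) and miR-22-3p (1.24-fold, 1.17 to 1.31). Against miR-378a-3p the change in exosomes was 1.03-fold, and its interval, 0.932 to 1.13, covered 1. The direction in exosomes depended on the miRNAs chosen. On RPM the ratio of hypoxic to normoxic exosomes was 4.63 for miR-22-3p, 3.34 for miR-423-5p and 5.57 for miR-378a-3p. All were below the 5.73 of miR-320-3p, while 42 of the 73 miRNAs were above it. One of the 42 was miR-146a-5p, with 19162 reads in hypoxic and 1512 in normoxic exosomes, against 13436 and 2252 of miR-320-3p.

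Exosomes were then set against cells of the same condition. miR-320-3p was 1.31 times as high in hypoxic exosomes as in hypoxic cells on RPM (1.28 to 1.35), a log2 ratio of 0.39. In normoxia its RPM in exosomes was 0.25 of that in cells (0.238 to 0.262), a log2 ratio of -2.00, while every other scaling put it higher in exosomes, from 36.2 to 111. The median ratio of all miRNAs listed in both libraries was 0.0493 in hypoxia (138 miRNAs) and 0.00304 in normoxia (73 miRNAs). Only 10 of the 138 miRNAs in hypoxia, and 9 of the 73 in normoxia, had a higher ratio than miR-320-3p. In hypoxia, where 116 of 138 (84.1%) were below 0.5 and 8 (5.80%) above 2, it was in neither group. In normoxia it was among the 68 of 73 miRNAs (93.2%) below 0.5, with 1 (1.37%) above 2. When scaled to the miRNA total, miR-320-3p was above 2 in both conditions, at 40.1 in hypoxia and 111 in normoxia. On that scale 62 of the 138 miRNAs (44.9%) were above 2 and 44 (31.9%) below 0.5 in hypoxia, and in normoxia 31 of the 73 (42.5%) and 22 (30.1%). With the median ratio set to 1, where miR-320-3p was at 26.7 in hypoxia and 82.1 in normoxia, 38.4% were above 2 and 36.2% below 0.5 in hypoxia, and 38.4% and 32.9% in normoxia. The miRNAs with a higher ratio than miR-320-3p included miR-486 of blood and miR-122-5p of liver in both conditions. miR-486 had 18.1 RPM in hypoxic exosomes against 1.13 in hypoxic cells, and 3.54 against 1.54 in normoxia. miR-122-5p had 15.1 against 5.72, and 11.1 against 14.9. The endothelial miR-126a-3p had a lower ratio in both. The other blood miRNAs varied. miR-142-3p had 11 reads in hypoxic and 23 in normoxic cells and was at 0 in both libraries of exosomes. miR-451-5p had 19 reads in hypoxic exosomes and was at 0 in hypoxic cells. In normoxia it had 13 reads in cells and was at 0 in exosomes. miR-144-3p, miR-142-5p and miR-223-3p were at 0 in all 4. In normoxia miR-1-3p of muscle (0.843 RPM in exosomes against 2.31 in cells) and miR-1b were also above miR-320-3p. The source of the reads in exosomes was not tested.

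miR-320-3p was also set beside miRNAs of like level in cells. In hypoxic cells 37 other miRNAs were within 2-fold of its level (414 to 1657 RPM), and 32 of them were listed in hypoxic exosomes. Of these, 1 was above the 1088 RPM of miR-320-3p, miR-146a-5p with 1551 RPM. In normoxic cells 36 others were within 2-fold (379.8 to 1519 RPM), and 16 were listed in normoxic exosomes. The highest of these was miR-125b-1-3p with 13.0 RPM, against 189.8 RPM for miR-320-3p. The 3 leading miRNAs of the exosomes lay outside these windows. In hypoxia their ratio of exosomes to cells on RPM was 2.32 for miR-378a-3p, 2.10 for miR-423-5p and 0.496 for miR-22-3p, against 1.31 for miR-320-3p. In normoxia it was 0.262, 0.353 and 0.0549 in the same order, against 0.250. Thus miR-378a-3p and miR-423-5p were above miR-320-3p in both conditions and miR-22-3p below it.

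miR-484 could only be bounded in exosomes. With 10 reads put in for its 0, its ratio of exosomes to cells on RPM was at most 0.0245 in hypoxia, at least 40.8-fold lower in exosomes, and at most 0.0162 in normoxia, at least 61.7-fold lower. The ratio of the miRNA totals was 0.0327 in hypoxia, above the bound, and 0.00225 in normoxia, below the bound. Scaled to the miRNA total, miR-484 was thus still bounded below its level in cells in hypoxia, but not in normoxia. At the ratio of miR-320-3p it would have had 536 reads in hypoxic and 154 reads in normoxic exosomes. At the median ratio of all miRNAs listed in both libraries it would have had 20.1 reads in hypoxic exosomes, above the 10 needed to be listed. In normoxic exosomes it would have had 1.88 reads, so a level at the median was below what this library lists. Absence from the list was also common at its level. Of 50 other miRNAs within 2-fold of miR-484 in hypoxic cells, 15 (30%) were listed in hypoxic exosomes, and of 48 in normoxic cells, 6 (12.5%) were listed in normoxic exosomes.

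**Figure D3:**
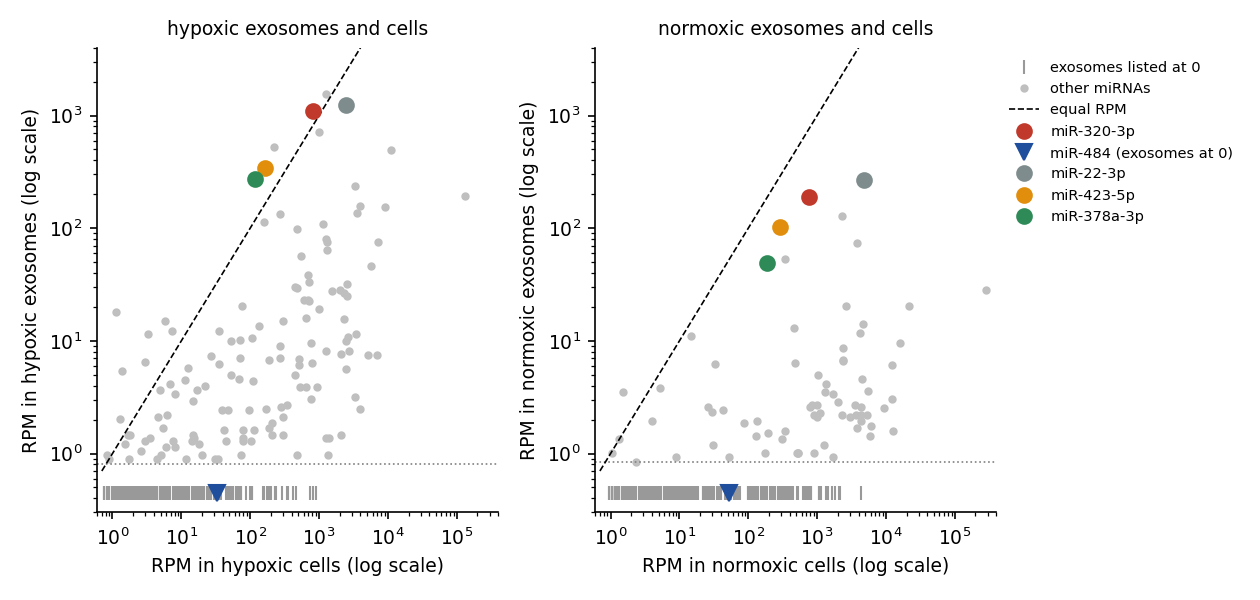
RPM in exosomes against RPM in cells for each miRNA, both on log axes, in hypoxia (left) and normoxia (right). The dashed line marks equal RPM, the dotted line 10 reads, and ticks at the bottom are miRNAs listed at 0 in exosomes. miR-320-3p lies above the dashed line in hypoxia (1088 against 828 RPM), below it in normoxia on RPM (189.8 against 759.6 RPM, though above it when scaled to the miRNA total), and above nearly all miRNAs of like level in cells, while miR-484 lies among those at 0.

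Short motifs have been described in miRNAs that are sent into exosomes, among them GGAG and CCCU. The letters GGAG, GAGG and CCCU were searched in the mature sequences as read, on the RNA strand only, and GGAG and GAGG can overlap each other. miR-320-3p and miR-320-5p had no sequence in the source used and were not searched. miR-484 holds CCCU and neither of the others. It was listed at 0 in both libraries of exosomes, as were most miRNAs of like level in cells. CCCU was found in 9.57% of the 690 miRNAs with a sequence and in 8.33% of the 132 of them that were listed in hypoxic exosomes and 6.15% of the 65 listed in normoxic exosomes. miR-378a-3p holds GGAG, found in 7.97% of the 690, in 12.1% of the 132 and in 7.69% of the 65. miR-423-5p holds GAGG, found in 8.12% of the 690, in 12.9% of the 132 and in 10.8% of the 65. miR-22-3p, at rank 2 in hypoxic and rank 1 in normoxic exosomes, holds none of the 3 motifs. miR-877 holds GGAG and GAGG and had 13 reads in hypoxic exosomes and fewer than 10 in normoxic exosomes. miR-702-3p holds CCCU and was listed at 0 in both. miR-1839-5p and miR-664-3p hold none. A match says only that the letters are there.

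The arms of the miR-320 hairpin were compared next, since a capped precursor is known to yield mainly its 3p arm. The 3p arm had 13436 reads in hypoxic exosomes, 2252 in normoxic exosomes, 11004 in hypoxic cells and 7904 in normoxic cells, and the 5p arm had fewer than 10 in each. Counting 10 reads for the 5p arm, the 3p arm was at least 99.93% of the reads of both in hypoxic exosomes and 99.56% in normoxic exosomes. It was at least 99.91% in hypoxic cells and 99.87% in normoxic cells.

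Other hairpins of this level also had an arm at 0. In hypoxic cells 28 other hairpins with a row for both arms had at least as many reads as miR-320-3p in their leading arm, and for 4 of them, let-7g, miR-101a, miR-222 and miR-26a, the other arm was at 0. In normoxic cells it was so for 4 of 41, let-7g, miR-185, miR-20a and miR-26a. All of these are known as products of Drosha. With 10 reads counted for an arm at 0, the lead of 1 arm over the other could be compared. It was at least that of miR-320 for 8 other hairpins in hypoxic cells and 10 in normoxic cells. Over all levels, an arm was at 0 for 75 of 165 listed hairpins in hypoxic cells and 69 of 163 in normoxic cells. In exosomes it was so for 77 of 93 in hypoxia and 49 of 52 in normoxia. Exosomes held too few reads of most hairpins for a comparison at the level of miR-320-3p, with 2 others there in hypoxic and 1 in normoxic exosomes. For miR-484 the list has a row for 1 arm only, so its arms could not be compared.

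**Figure D4:**
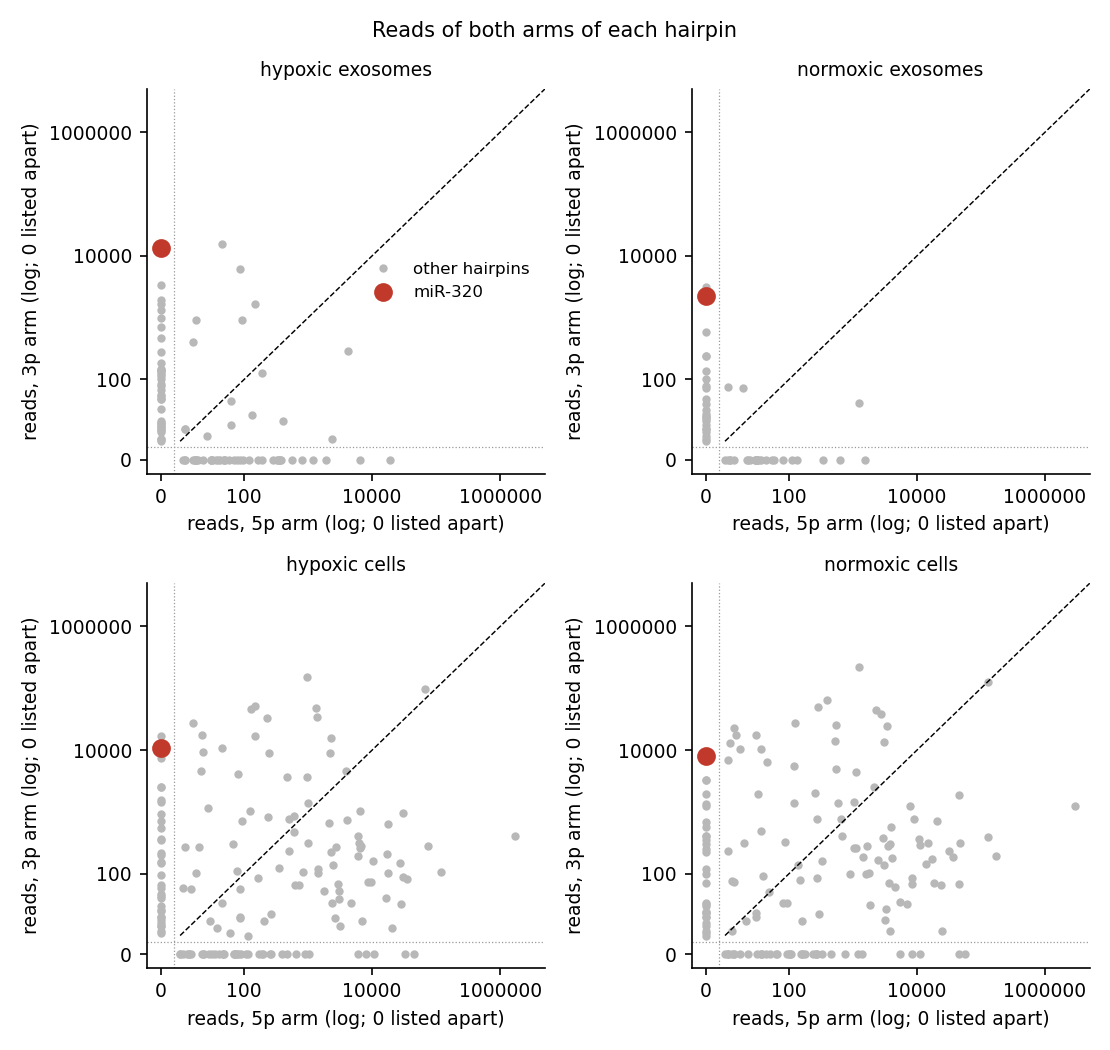
Reads of the 3p arm against reads of the 5p arm for each hairpin with a row for both, on log axes, in the 4 libraries. Values of 0 (fewer than 10 reads) are placed apart beyond the dotted lines, and the dashed line marks equal arms. miR-320 lies on the left edge in every library, with 13436, 2252, 11004 and 7904 reads of its 3p arm in hypoxic exosomes, normoxic exosomes, hypoxic cells and normoxic cells.

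The miRNAs with the pattern most like that of miR-320-3p over the 4 libraries were sought among 70 others listed in all of them. Likeness was the Euclidean distance of log2 RPM after the mean of each miRNA over the 4 libraries was taken off, a measure that no scaling of libraries changes. The nearest was miR-378a-3p at a distance of 0.72, followed by miR-3557-5p (0.79), miR-423-5p (1.05), miR-146a-5p (1.52) and miR-3574 (1.60). The median distance over the 70 was 5.78. miR-378a-3p had 275 RPM in hypoxic exosomes, 49.3 in normoxic exosomes, 118 in hypoxic cells and 188 in normoxic cells. Its ratio of hypoxic to normoxic exosomes was close to that of miR-320-3p on either scale, 5.57 against 5.73 on RPM and 0.725 against 0.745 on the miRNA total. In cells its ratio of hypoxia to normoxia was the lower one on both, 0.629 against 1.09 on RPM and 1.19 against 2.07 on the miRNA total. miR-3574 had 11 to 24 reads in a library, so that counting error bears on its place. miR-484 was not listed in exosomes and could not be placed by this measure.

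**Figure D5:**
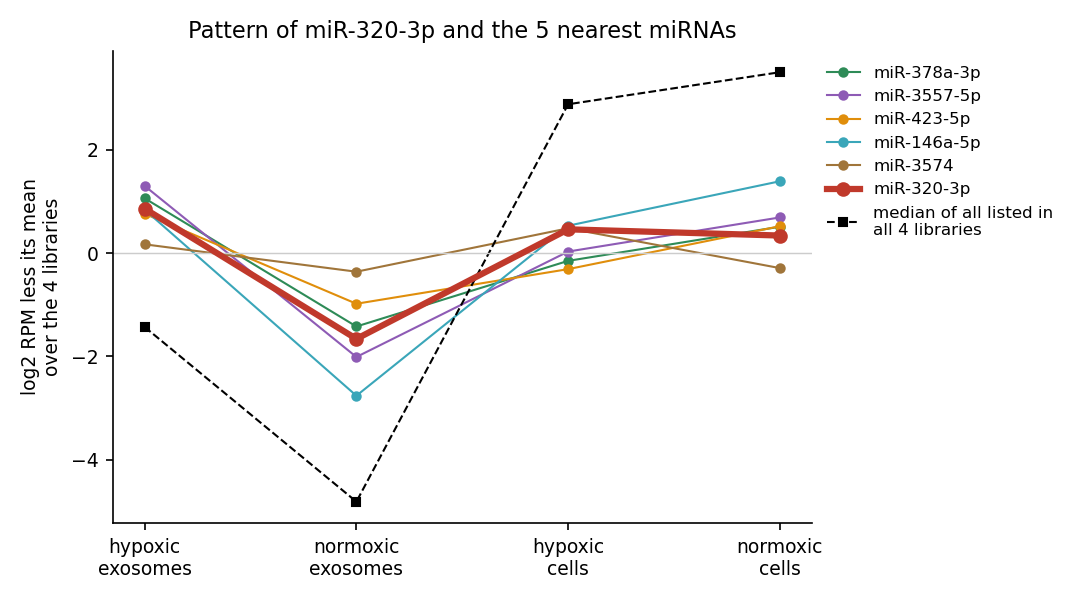
log2 RPM less its mean over the 4 libraries for miR-320-3p, the 5 nearest miRNAs, and the median of all miRNAs listed in all 4 libraries. miR-320-3p has its highest value, 0.86, in hypoxic exosomes and its lowest, -1.66, in normoxic exosomes, and the median miRNA has -4.81 there and 3.50 in normoxic cells. This order holds for RPM, while on the miRNA total miR-320-3p is highest in normoxic exosomes (3.24) and lowest in normoxic cells (-3.55), and the median miRNA has 0.10 and -0.39 there.

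Other miRNAs known from mouse or human to be made without Drosha were 9 of the 765. Of these, 6 (66.7%) were listed in hypoxic cells, with 186 RPM in all, and 7 (77.8%) in normoxic cells, with 237 RPM, against 43.3% and 44.2% of all 765. In both libraries of cells 6 were listed, with 0 above 2 and 1 below 0.5 on RPM (1.27% and 27.8% of all 316), and 2 above 2 and 0 below 0.5 on the miRNA total (11.7% and 3.80%). The 2 were miR-664-3p and miR-1839-3p, at 2.82 and 2.54 on that scale. miR-1839-3p had 53 reads in hypoxic and 31 in normoxic cells. Its ratio on RPM was 1.34 (0.844 to 2.16), an interval that covered 1. On RPM the median ratio of hypoxia to normoxia was 0.730 for the 6 against 0.612 for all 316. The 1 below 0.5 was the mirtron miR-877, with 34 reads in hypoxic and 55 in normoxic cells (0.484, 0.306 to 0.756), an interval that covered 0.5, and it was at 0.917 when scaled to the miRNA total. The most abundant, miR-1839-5p, had 135 RPM in hypoxic and 174 RPM in normoxic cells, a ratio of 0.776 (0.727 to 0.829) on RPM and of 1.47 when scaled to the miRNA total. The mirtron miR-702-3p, with 27.2 RPM in hypoxic and 39.8 RPM in normoxic cells, had a ratio of 0.683 (0.591 to 0.788) on RPM and of 1.29 on that scale. miR-664-3p had 15.7 RPM in hypoxic and 10.6 RPM in normoxic cells, a ratio of 1.49 (1.18 to 1.89) on RPM. As with miR-320-3p and miR-484, these ratios lay on both sides of 1 on RPM.

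In exosomes 2 of the 9 (22.2%) were listed in hypoxia and 1 (11.1%) in normoxia, near the shares of all 765 (18.8% and 9.67%). miR-1839-5p had 13.4 RPM (166 reads) in hypoxic and 1.01 RPM (12 reads) in normoxic exosomes, a ratio of 13.3 (7.41 to 26.2) on RPM and of 1.73 when scaled to the miRNA total. miR-877 had 13 reads in hypoxic exosomes and fewer than 10 in normoxic exosomes. miR-702-3p, close to miR-484 in its level in cells, was also listed at 0 in both. In hypoxia the ratio of exosomes to cells on RPM was 0.411 for miR-877 (0.199 to 0.799) and 0.0993 for miR-1839-5p (0.0842 to 0.116), which became 12.6 and 3.03 when scaled to the miRNA total. The same ratio on RPM was 1.31 for miR-320-3p and at most 0.0245 for miR-484. The ratios of exosomes to cells in this group thus ran over a wide range.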

How the data were processed

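Small RNA of 4 libraries, 1 per condition, was sequenced on an Illumina platform, and the authors deposited RPM for 765 rat miRNAs. Rnor 6.0 is the build in the submitters' processing notes. The aligner, the counter and the total behind RPM were not given in the sources used here. Whole reads were recovered from the steps of the RPM values (100% within 0.1 read), which gave 12353415, 11866514, 13285239 and 10404866 reads behind the scale and 108860, 13598, 3578371 and 5310302 miRNA reads in hypoxic exosomes, normoxic exosomes, hypoxic cells and normoxic cells. No count model was fitted, since no condition had a second library. Ratios of RPM were taken where each library of the pair had 10 reads or more, and called past 2 or 0.5. The planned groups, named miRNAs (members, 3 leading exosome miRNAs, 9 others made without Drosha, muscle, blood, endothelial and liver markers, rank neighbours and 5 nearest patterns) and alternatives (other scalings, 50 reads, a fold of 1.5) were all run, and the members and lists were chosen with earlier results of these data known. The 8 miRNAs named beside miR-320-3p in cells, and the hairpins named for an arm at 0, were chosen after their values were seen, as were miR-503-5p, miR-1b, the read minimum of 1000 and the window of 2-fold. The blood miRNAs summed to 19.6 RPM in hypoxic exosomes, 3.54 in normoxic exosomes, 1.96 in hypoxic cells and 5.00 in normoxic cells. The endothelial ones summed to 1.62, 1.94, 87.7 and 145 RPM in the same order, and miR-122-5p of liver had 15.1, 11.1, 5.72 and 14.9 RPM. Sequences are from RefSeq (GRCr8), which held 690 of the 765 (90.2%). Recovery and intervals were tested on simulated data. The tools were pandas 2.3.3, scipy 1.17.1, matplotlib 3.10.9 and numpy 2.4.6 under Python 3.11.15.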

Additional observations from a re-analysis of the deposited data

How the results depend on the processing

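Every ratio of RPM between libraries depended on the scale of the libraries. The alternatives were, in this order, scaling to the miRNA total, setting the median ratio to 1, the trimmed mean of M values (30% and 5% trims), and the miRNA total without miR-21-5p. For hypoxic over normoxic exosomes they turned the ratio of miR-320-3p from above to below 1, at 0.745, 0.852, 0.730 and 0.743. For normoxic exosomes over normoxic cells they turned it from below to above 1, at 111, 82.1, 36.2 and 51.5. For hypoxic exosomes over hypoxic cells it was 40.1, 26.7, 24.9 and 21.1, and for hypoxic over normoxic cells 2.07, 1.78, 1.79 and 1.81, above 1 as on RPM. miR-484 in cells had 1.20, 1.04, 1.04 and 1.06. The alternatives rescale whole libraries by construction, so none of them changes the order of miRNAs in a comparison or the ratio of miR-320-3p to miR-484 within a library. Without miR-21-5p the share of miR-320-3p was 12.6% in hypoxic exosomes, 17.0% in normoxic exosomes, 0.598% in hypoxic cells and 0.330% in normoxic cells, and that of miR-484 was 0.0238% in hypoxic and 0.0226% in normoxic cells.

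Counts of miRNAs past the thresholds moved with the settings. By construction a minimum of 50 reads leaves fewer miRNAs to compare, so a lower count under it is not in itself a lower share. In exosomes the 62 above 2 became 21 at a minimum of 50 reads and 14 with the median ratio set to 1, and the 1 below 0.5 became 0 and 20. In cells the 4 above 2 became 2 and 26 under these settings and 12 at a fold of 1.5, and the 88 below 0.5 became 58, 17 and 190. For normoxic exosomes over normoxic cells 1 above 2 became 0 and 28 and 68 below 0.5 became 22 and 24. For hypoxic exosomes over hypoxic cells 8 above 2 became 4 and 53 and 116 below 0.5 became 63 and 50. The same counts when scaled to the miRNA total are given above with each comparison.

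No paired analysis was possible because each condition had 1 library, and for the same reason no replicate was left out. miR-484 has no value in exosomes under any scaling, because it was listed at 0. The 13598 miRNA reads of normoxic exosomes limit what can be seen there.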
